A study of Mus musculus with 10 samples.

Results

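D-type cyclins are the regulatory subunits that mitogen signals induce to start the cell cycle. They bind the kinases CDK4 and CDK6, which phosphorylate the retinoblastoma protein RB and so release the E2F transcription factors that drive S phase genes. INK4 proteins block CDK4 and CDK6, and p27 (encoded by Cdkn1b) binds cyclin and kinase complexes and restrains CDK2. In mammary epithelium and mammary carcinoma cyclin D1 is the best known of the D cyclins, while cyclins D2 and D3 and CDK6 are prominent in blood cells. The genes described here are the 3 D cyclin genes (Ccnd1, Ccnd2, Ccnd3), the kinase genes Cdk4 and Cdk6, the INK4 genes Cdkn2a, Cdkn2b and Cdkn2c, Cdkn1b, and Rb1. They were taken by symbol, and 9 of the 10 were analysed, of 18047 genes in all. Cdkn2a was not analysed here. All 9 passed the filter on low values (a mean of at least 10 normalized counts over the libraries).

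The tumours were of 4T1, a BALB/c mammary carcinoma line, and had grown for 3 weeks in BALB/c hosts before their RNA was sequenced. They either carried a knockout of 1 gene (KO, 5 libraries, KO1 to KO5) or were wild type for it (WT, 5 libraries, WT1 to WT5), and neither group had a treatment other than growth in the mouse. The labels give no host age, do not say how the gene was disrupted or whether the KO cells are 1 clone, give 1 batch for all libraries and name no animal for any of them, so error values measure the spread between these libraries. KO5 and WT1 to WT4 carry the unexplained prefix RESUB in their library names, so prefix and genotype overlap in part, and WT2 and WT5 share the library number 170. Whether WT2 and WT5 come from the same tumour is not stated. If they do, the WT group holds 4 tumours and its SD, SE and n are not those of 5. With WT2 and WT5 averaged, the difference between KO and WT in Ccnd2 was 0.85 on the log2 scale (limma adjusted p = 0.135).

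The libraries held 8609756 to 19934428 reads in genes. The 10 carcinoma markers (among them Epcam, Krt8 and Krt18) were detected in every library, with a summed level of 13240 to 18398 normalized counts in KO and 18706 to 31926 in WT. Keratinocyte markers (8 of 8 with lower fitted values in KO) summed to 819, 7292 and 3223 in WT2, WT3 and WT5, and to between 36.7 and 141 in the other 7 libraries, with Krt1 and Flg2 at 0 in 7 libraries each. Skeletal muscle markers (8 of 8 lower) summed to 463 to 5525 in KO and 220 to 106535 in WT, and adipocyte markers (5 of 6 lower) to 628 to 3517 and 654 to 6017. In bulk tumour RNA, fewer cells of a type and less RNA per cell cannot be told apart.

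Because the members are related genes, the longest stretch of coding bases that a related pair shares exactly is shown first for 6 pairs, since it bears on whether reads of one can be counted for another. Sequences are from the GENCODE M21 transcripts, 5′ to 3′ on the coding strand, with GRCm38 coordinates, and capitals mark a start codon.
Ccnd1 and Ccnd2: ttcaagtgcgtgcagaagga
Ccnd1 and Ccnd3: gcctgccaggaacagat
Ccnd2 and Ccnd3: ATGgagctgctgtg
Cdk4 and Cdk6: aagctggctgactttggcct
Cdkn2a and Cdkn2b: cgggaaggcttcctggacacgct
Cdkn2b and Cdkn2c: ttcctggacac

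The stretch shared by Ccnd1 and Ccnd2 is 20 bases long, in coding exon 1 of both genes, at chr7:144939542-144939561 and chr6:127150628-127150647, each on the minus strand. Over aligned positions the coding sequences of Ccnd1 and Ccnd2 were 74.7% identical, those of Ccnd1 and Ccnd3 74.2% and those of Ccnd2 and Ccnd3 75.95%. Ccnd1 and Ccnd3 share 17 bases, at chr7:144932743-144932759 on the minus strand and chr17:47598621-47598637 on the plus strand. The 14 bases shared by Ccnd2 and Ccnd3 are the start of both reading frames, at chr6:127150760-127150773 on the minus strand and chr17:47593655-47593668 on the plus strand. Cdk4 and Cdk6 were 73.6% identical and share 20 bases, at chr10:127064943-127064962 and chr5:3429099-3429118, both on the plus strand. Cdkn2a and Cdkn2b lie side by side on chromosome 4, were 78.2% identical and share 23 bases, at chr4:89276855-89276877 and chr4:89307184-89307206, both on the minus strand. For Cdkn2a the longest coding sequence, 510 bases, was used. In it the stretch starts at coding position 299, and in Cdkn2b at 241, so the reading frames differ. The identity of this pair is thus one of bases and not of INK4 proteins. Cdkn2b and Cdkn2c were 69.75% identical and share 11 bases, at chr4:89307187-89307197 and chr4:109661502-109661512, both on the minus strand. The runs shown are 11 to 23 bases long. The read length is not given in the sources used here.

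Ccnd2 was the 1 member whose KO and WT libraries did not overlap. The gene (ENSMUSG00000000184) lies on the minus strand of chromosome 6 from 127125162 to 127152193. It had 3041, 2957, 2739, 2414 and 3176 normalized counts in KO1 to KO5 and 1493, 1306, 1581, 1673 and 1894 in WT1 to WT5. Every KO library was above every WT library, with KO4 the lowest of the KO and WT5 the highest of the WT libraries. The means were 2865 ± 298 in the KO libraries and 1589 ± 218 in the WT libraries (SD, n = 5 each), a log2 difference of 0.85 ± 0.16 (SE), or 1.81-fold. Of all genes tested, 0.684% had libraries that did not overlap with KO higher. The members were chosen with the KO and WT values of these data known, so this difference is a description and supports nothing by itself.

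In the fit over all 17975 genes tested, 0 of the 9 members passed an adjusted p of 0.05 in limma, where 0.00556% of all genes did. At an unadjusted p under 0.05 there was 1, Ccnd2, against 6.49% of all genes. The lowest limma adjusted p of a member was that of Ccnd2, at 0.307, and those of the other 8 ran from 0.888 to 0.984. On the recovered reads edgeR called 0 of the 9 (0.00556% of all genes), with an adjusted p of 0.256 for Ccnd2, and DESeq2 called 1 (0.673% of all genes), Ccnd2 at an adjusted p of 7.63e-05. Over the alternatives the adjusted p of Ccnd2 ran from 7.63e-05 to 0.996. Of the 9 members 3 had higher and 6 lower fitted values in KO, with a median log2 difference of -0.08, beside -0.01 over all genes tested.

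The Ccnd2 difference was present in both sets of libraries defined by the prefix, where 1 group holds a single library and has no spread of its own. KO5 against WT1 to WT4, the prefixed libraries, gave 1.08 on the log2 scale, and KO1 to KO4 against WT5 gave 0.55. With the prefix as a term it was 0.81, and without WT2, WT3 and WT5, where keratinocyte sums were high, it was 0.85. With 1 library left out it ran from 0.79 to 0.92. Part of Ccnd2's exons, 740 bases, overlaps the antisense genes Gm43126 and 9330179D12Rik, which were not analysed here, and without a stated strand reads of that part cannot be assigned to either strand.

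**Figure D1:**
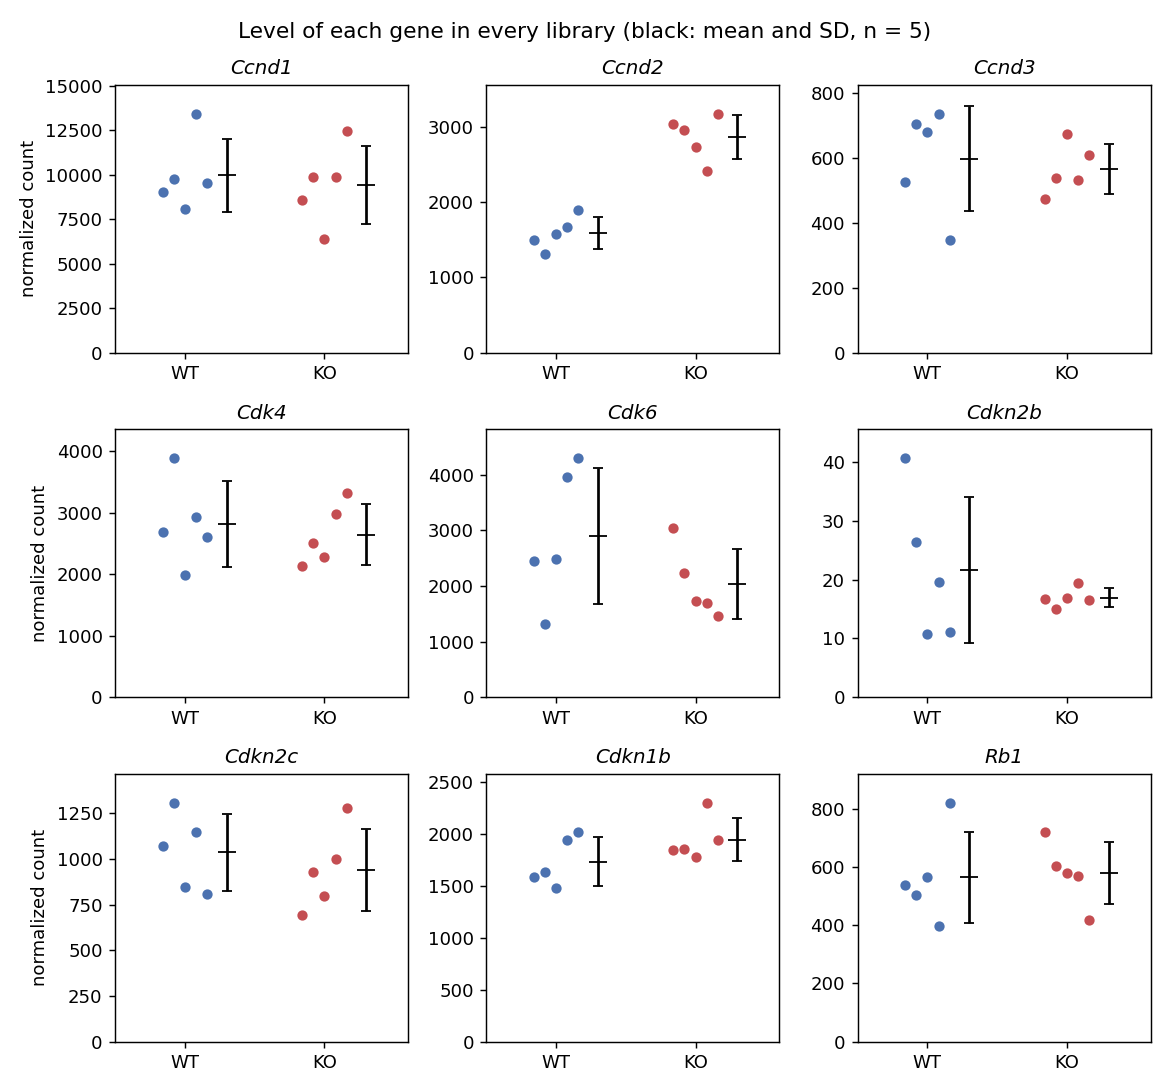
Normalized counts (vertical axes, from 0, a separate scale for each gene) of the 9 analysed members in the WT libraries (blue) and the KO libraries (red), ordered by replicate number within each group. Black marks give the mean and SD (n = 5). For Ccnd2 the KO libraries, at 2414 to 3176, lie above the WT libraries, at 1306 to 1894, and for the other 8 genes the groups overlap.

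Ccnd1, the cyclin of mammary epithelium, was the most abundant member, and its groups overlapped. The gene (ENSMUSG00000070348, chromosome 7, 144929931 to 144939925, minus strand) had 8561, 9891, 6407, 9849 and 12455 normalized counts in KO1 to KO5. The WT libraries, in the same order, had 9005, 9765, 8078, 13437 and 9516. KO3 was the lowest library of all and WT4 the highest, and the remaining libraries of the groups were interleaved. The means were 9433 ± 2204 in the KO libraries and 9960 ± 2048 in the WT libraries (SD, n = 5 each), and the log2 difference was -0.09 ± 0.22 (SE). It turned to 0.33 within the prefixed libraries and to 0.09 with the prefix as a term. Of its exonic bases 1100 are shared with LTO1, a protein-coding gene on the other strand, which had 113 to 199.7 normalized counts.

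Ccnd3, the third D cyclin gene (ENSMUSG00000034165, chromosome 17, 47505051 to 47599691, plus strand), had 473, 539, 672, 530 and 609 normalized counts in KO1 to KO5. In WT1 to WT5 it had 524, 703, 680, 736 and 347. The KO range lies inside the WT range, with WT5 lowest and WT4 highest. The means were 565 ± 77.2 and 598 ± 162.3 (SD, n = 5 each), with a log2 difference of -0.04 ± 0.22 (SE). It was 0.66 within the libraries without the prefix, where WT5 is the only WT library, and 0.28 with the prefix as a term. Ccnd3 shares 361 exonic bases with Bysl, a protein-coding gene on the other strand, which had 94.2 to 223.7 normalized counts.

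Set per kilobase of merged exons, the D cyclins can be compared with each other. Ccnd2 made up 14.7%, 12.7%, 16.8%, 10.7% and 11.1% of the D cyclin RNA in KO1 to KO5. In WT1 to WT5 it made up 7.45%, 6.05%, 8.57%, 5.71% and 8.90%. The lowest KO share, in KO4, was above the highest WT share, in WT5. The mean share was 13.2% ± 2.59 in the KO libraries and 7.34% ± 1.44 in the WT libraries (SD, n = 5 each). Ccnd1 made up 84.0% ± 3.36 in the KO libraries and 89.7% ± 1.52 in the WT libraries, and Ccnd3 2.83% ± 0.90 and 2.94% ± 0.84. The ratio of Ccnd1 to Ccnd2 per kilobase ran from 4.67 to 8.15 in KO and from 10.04 to 16.05 in WT.

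The summed level of the D cyclins was 2372 ± 480 normalized counts per kilobase in the KO and 2352 ± 446 in the WT libraries (SD, n = 5 each). The share of Ccnd3 depends on the length used, since its merged exons span 8775 bases and its longest protein-coding transcript 2113. Per kilobase of the longest protein-coding transcript it was 8.53% ± 2.46 in the KO libraries and 8.93% ± 2.42 in the WT libraries, while that of Ccnd2 was 14.3% ± 2.51 and 8.02% ± 1.59. These shares use the same counts as the differences above and are not a separate line of evidence.

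**Figure D2:**
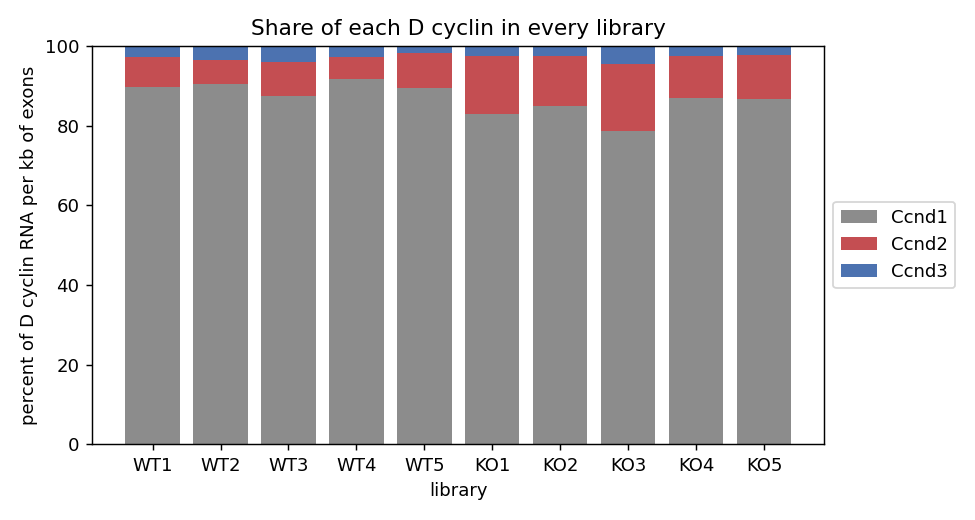
Stacked bars give the percent of D cyclin RNA (normalized counts per kilobase of merged exons, vertical axis) that came from Ccnd1 (grey), Ccnd2 (red) and Ccnd3 (blue) in each library. The red part is 10.7% to 16.8% in the KO libraries and 5.71% to 8.90% in the WT libraries.

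Ccnd2 was weighed against chromosome 6, because genes of this chromosome had higher values in KO as a group. The median log2 difference of the other 1010 tested genes of chromosome 6 was 0.18, and 72.4% of them had higher fitted values in KO. Among the autosomes and chromosome X only chromosome 12 had a higher median, at 0.21, with chromosome 14 next at 0.16, and the lowest was chromosome 19 at -0.14. The median over all genes was -0.01. The chromosome 6 median of the deviations from each gene's mean was 0.04 to 0.13 in the KO libraries and -0.15 to 0.01 in the WT libraries. The shift was present along the chromosome: in 15 Mb bins the median ran from 0.12 to 0.25.

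The Ccnd2 difference exceeded the chromosome 6 median by 0.68 on the log2 scale, and 35 of the 1010 other genes had a larger difference. Relative to its own mean over the 10 libraries and after the chromosome 6 median of each library was subtracted, Ccnd2 stood at 0.39, 0.38, 0.26, 0.09 and 0.54 in KO1 to KO5. In WT1 to WT5 it stood at -0.43, -0.56, -0.44, -0.19 and -0.11. Every KO library thus remained above 0 and every WT library below it, with KO4 and WT5 the closest to each other. The group means of these values were 0.33 ± 0.17 and -0.34 ± 0.19 (SD, n = 5 each). The excess over the chromosome 6 median was 0.97 among the prefixed libraries and 0.39 among the rest.

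Genes close to Ccnd2 were set beside it. In the 2 Mb centred on its start, the other 13 tested genes had a median of 0.10, 8 of them had higher fitted values in KO, and 0 had a higher difference than Ccnd2. In the 15 Mb around it the median of 177 genes was 0.26, and 9 had a larger difference. Tigar, the nearest tested protein-coding gene on one side, which encodes a regulator of glycolysis, had 98.2 ± 18.2 normalized counts in the KO and 112 ± 65.8 in the WT libraries (log2 -0.05 ± 0.32 SE). Parp11, an ADP-ribosyltransferase gene and the nearest protein-coding one on the other side, had 824 ± 97.7 and 601 ± 227 (log2 0.52 ± 0.22). Fgf23, a hormone gene beyond Tigar, was scarce, with 8.29 ± 5.91 and 20.6 ± 8.06 (log2 -1.48 ± 0.57). These neighbours were picked by position after the values were seen.

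**Figure D3:**
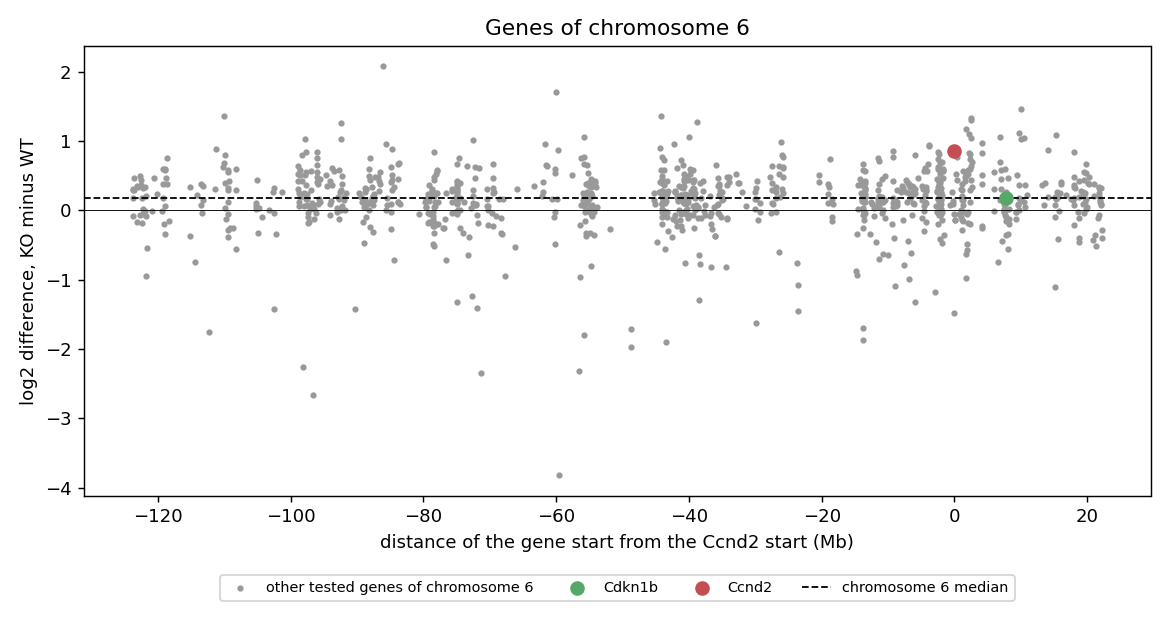
Log2 difference between KO and WT (vertical axis) of each tested gene of chromosome 6 against the distance of its start from that of Ccnd2 in Mb (horizontal axis). Ccnd2 (red) is at 0.85, above the dashed median of 0.18, and Cdkn1b (green) is at 0.17, on it.

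Cdkn1b, which encodes p27, is the other member on chromosome 6 (ENSMUSG00000003031, 134920401 to 134925513, plus strand). It had 1844, 1860, 1777, 2303 and 1946 normalized counts in KO1 to KO5 and 1588, 1630, 1480, 1946 and 2019 in WT1 to WT5. KO4 and WT5 were the highest of their groups, and the groups overlapped. The means were 1946 ± 209 in the KO libraries and 1733 ± 236 in the WT libraries (SD, n = 5 each), a log2 difference of 0.17 ± 0.16 (SE), which is 0.01 below the median of the other genes of its chromosome. Within the libraries without the prefix it was -0.06.

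The kinase genes had no separation between groups. Cdk4 (ENSMUSG00000006728, chromosome 10, 127063534 to 127067920, plus strand) had 2129, 2508, 2283, 2982 and 3329 normalized counts in KO1 to KO5. The WT libraries, in the same order, had 2691, 3891, 1981, 2928 and 2602. The lowest and the highest library were both WT (WT3 and WT2). The log2 difference was -0.08 ± 0.20 (SE), and 0.25 within the prefixed libraries. Of its exonic bases 641 are shared with Tspan31 on the other strand, which had 512 to 1147 normalized counts.

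Cdk6 (ENSMUSG00000040274, chromosome 5, 3341485 to 3531008, plus strand) had the widest relative spread of the abundant members. It had 3035, 2232, 1722, 1696 and 1456 normalized counts in KO1 to KO5 and 2457, 1315, 2477, 3965 and 4298 in WT1 to WT5. WT4 and WT5 were above every KO library, while WT2 was below every KO library. WT2 and WT5, which share a library number, were thus the lowest and the highest library. The means were 2028 ± 630 and 2902 ± 1222 (SD, n = 5 each), with a log2 difference of -0.45 ± 0.31 (SE). The difference was negative in all 23 alternatives, from -1.03 to -0.28, and was -0.87 with the prefix as a term. The ratio of Cdk4 to Cdk6 per kilobase of exons ran from 3.02 to 9.84 in KO and from 2.61 to 12.7 in WT. Cdk6 shares 368 exonic bases with the antisense gene Gm17590, which had 21.9 to 90.3 normalized counts.

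Among the INK4 genes analysed as members, Cdkn2c, which encodes p18, was abundant and Cdkn2b, which encodes p15, was scarce. Cdkn2c (ENSMUSG00000028551, chromosome 4, 109660876 to 109667189, minus strand) had 692, 931, 797, 998 and 1282 normalized counts in KO1 to KO5. In WT1 to WT5 it had 1070, 1310, 849, 1150 and 806. KO1 was lowest and WT2 highest, and the groups overlapped, with a log2 difference of -0.15 ± 0.20 (SE), which turned to 0.16 with the prefix as a term. Cdkn2b (ENSMUSG00000073802, chromosome 4, 89306299 to 89311039, minus strand) had 16.8, 15.0, 16.9, 19.4 and 16.6 in KO1 to KO5 and 40.7, 26.4, 10.7, 19.5 and 11.1 in WT1 to WT5. The 5 KO libraries lay close together inside the WT range. Its reads numbered 10 to 49 per library, so counting error is a large part of each value. The log2 difference was -0.17 ± 0.38 (SE), -0.71 without WT2, WT3 and WT5, and 0.57 within the libraries without the prefix.

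Rb1, the gene of the retinoblastoma protein (ENSMUSG00000022105, chromosome 14, 73183673 to 73325822, minus strand), had 721, 604, 581, 571 and 420 normalized counts in KO1 to KO5. The WT libraries, in the same order, had 539, 505, 565, 398 and 822. WT4 and KO5, the lowest of their groups for Rb1, were the highest of their groups for Ccnd1. The log2 difference was 0.05 ± 0.21 (SE), below the chromosome 14 median of 0.16. Fitted with the prefix it was -0.33, and it was -0.24 among the prefixed libraries and -0.41 among the rest. With 1 library left out it ran from -0.06 to 0.20, so its sign depends on the prefix and on single libraries. Rb1 shares 896 exonic bases with Rcbtb2 and Lpar6, genes on the other strand, and Lpar6 had 487 to 707 normalized counts in KO against 254 to 449 in WT.

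Per kilobase of merged exons, and over all 10 libraries, the level of Ccnd1 was 2059 ± 430 normalized counts, followed by Cdk4 at 841 ± 178 (SD, n = 10). Cdkn1b (404 ± 52.3) and Cdkn2c (368 ± 78.8) came next and did not differ beyond their spread, with Cdkn1b higher in 6 of 10 libraries. Ccnd2 (237 ± 76.1) and Cdk6 (176 ± 73.3) followed. By this length Ccnd2 was above Cdk6 in 5 of 5 KO libraries and in 1 of 5 WT libraries. The order of this pair in WT depends on the length used. Merged exons span 9409 bases in Ccnd2 and 13989 in Cdk6, and the longest transcripts 6330 and 11525. In the KO means, the place of Ccnd2 below Cdkn1b and Cdkn2c depends on the length used as well. The merged exons of Cdkn1b and Cdkn2c span 4552 and 2686 bases, and their longest transcripts 4552 and 2471. Rb1 (95.2 ± 21.1) was above Ccnd3 (66.3 ± 13.8) in 9 of 10 libraries, and Cdkn2b (13.9 ± 6.30) was lowest in every library. The order of Rb1 and Ccnd3 also depends on the length used. Merged exons span 6015 bases in Rb1 and 8775 in Ccnd3, and the longest transcripts 4656 and 3858.

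Markers of other cell types were set beside Ccnd2. The 8 T cell markers all had higher fitted values in KO, with 0 of 8 past the threshold in limma (0.00556% of all genes), edgeR or DESeq2 and 4 at an unadjusted p under 0.05 in limma (2.82% of all genes higher). They had a summed level of 380 to 860 normalized counts in KO and 216 to 405 in WT. Of the 5 NK cell markers 4 had higher values, 2 of them at an unadjusted p under 0.05, with sums of 243 to 435 and 138 to 272. The 7 macrophage markers, 6 of them higher, summed to 14462 to 21196 in KO and 9669 to 22994 in WT. Neutrophil markers (6 of 6 higher) summed to 940 to 2545 and 519 to 2861, and Ly6g was at 0 in 1 library. The carcinoma markers had lower fitted values in 10 of 10. Their sums did not overlap, but KO4 (18398) and WT5 (18706) were close. Taken singly, 0 of the 10 genes had libraries that did not overlap, where 0.734% of all genes did not overlap with KO lower. Of these 10, 0 passed the threshold in limma or edgeR and 1 in DESeq2 (0.673% of all genes), and 9 were lower at an unadjusted p under 0.05 in limma (3.67% of all genes). Of the 5 B cell markers 1 was analysed, at 4.16 to 15.9 normalized counts. Endothelial sums (2907 to 4220 in KO, 2509 to 4168 in WT) and fibroblast sums (36475 to 72727 and 34713 to 101937) overlapped widely. The part of these cell types in the Ccnd2 difference was not tested.

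The genes whose log2 level over the 10 libraries was most like that of Ccnd2 were Trim21, Mpeg1 and Slc25a37, with Pearson correlations of 0.93, 0.93 and 0.93. They lie on chromosomes 7, 19 and 14. Trim21 encodes a cytosolic antibody receptor, Slc25a37 a mitochondrial iron carrier and Mpeg1 a pore-forming protein of macrophages. Mpeg1 had 5368 ± 437 normalized counts in the KO and 3745 ± 567 in the WT libraries (SD, n = 5 each), and Trim21 446 ± 20.4 and 360 ± 27.3, both without overlap. Slc25a37 had 1296 ± 150 and 999 ± 60.3, with overlap. Of all genes tested, 0.684% did not overlap with KO higher. As likeness to Ccnd2, whose libraries do not overlap, picked these genes, their separation is not separate evidence. For Ccnd1 the most alike were Acot2, Mars and P4hb (0.97, 0.96 and 0.95), and for Ccnd3 Pgghg, Hdac5 and Ubald1 (0.97, 0.96 and 0.96). These are the highest of all tested genes over 10 libraries that share depth and composition, and are given as a description.

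Over all 10 libraries the wider pathway had lower fitted values in KO at most steps after the D cyclins. The medians of its gene lists ran from -0.17 to 0.58 among the prefixed libraries and from -0.62 to 0.03 among the rest. Of its genes, 0 of 50 passed the threshold in limma, edgeR or DESeq2. At an unadjusted p under 0.05 in limma 1 was higher and 4 were lower, where 2.82% and 3.67% of all genes were. The lists were chosen with earlier results of these data known. All 10 S phase genes driven by E2F had fitted values below 0, and their median was -0.41 on the log2 scale. Of all 17975 genes tested, 9171 had lower fitted values. Cdt1, a replication licensing factor, had 293 ± 67.9 normalized counts in the KO and 459 ± 184 in the WT libraries (log2 -0.61 ± 0.25 SE, limma adjusted p = 0.739). Mcm5, a subunit of the replicative helicase, had 947 ± 213 and 1293 ± 242 (-0.46 ± 0.21), Tk1, a thymidine kinase, 617 ± 61.5 and 831 ± 166 (-0.41 ± 0.18), and Pola1, a DNA polymerase subunit, 1201 ± 225 and 1765 ± 652 (-0.50 ± 0.25). The median of this list was -0.08 among the prefixed libraries and -0.59 among the rest. With 1 library left out it ran from -0.49 to -0.22, the latter without KO3.

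Of the 12 genes of the Rb family and E2F factors 9 had lower values, with a median of -0.22. This median was -0.008 among the prefixed libraries and -0.31 among the rest. The activator E2f1 had 315 ± 108 normalized counts in the KO and 449 ± 149 in the WT libraries (log2 -0.51 ± 0.26 SE). The Rb relative Rbl1 and the E2F partner Tfdp1 were at -0.32 ± 0.19 and -0.30 ± 0.18, and the repressor E2f6 was at 0.43 ± 0.25. The 8 later G1 cyclins and kinases had a median of -0.002, and of 0.44 among the prefixed libraries and -0.26 among the rest. Over all libraries they were divided evenly, 4 higher and 4 lower. Among them Mnat1, an assembly factor of the CDK-activating kinase, had 326 ± 55.5 normalized counts in the KO and 235 ± 33.9 in the WT libraries (0.47 ± 0.18), while Ccna2, which encodes cyclin A2, was at -0.39 ± 0.27. Cdk2 and Cdk7 were at -0.05 ± 0.16 and 0.05 ± 0.17.

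The 8 genes of G2 and mitosis all had lower fitted values, with a median of -0.27. Plk1, a mitotic kinase, had 300.4 ± 40.0 normalized counts in the KO and 452 ± 174 in the WT libraries (log2 -0.53 ± 0.22 SE), without overlap, where 0.734% of all genes did not overlap with KO lower. The mitotic genes Ccnb2, Aurka and Mki67 were at -0.43 ± 0.25, -0.39 ± 0.23 and -0.30 ± 0.30. The median of this list turned to 0.16 among the prefixed libraries and was -0.62 among the rest. With 1 library left out it ran from -0.35 to -0.10, the latter without WT5. Of the 8 genes for turnover of D cyclins and p27, 7 had lower values, with a median of -0.14. The F-box genes Fbxo31, Fbxo4 and Skp2 were at -0.44 ± 0.26, -0.42 ± 0.21 and -0.23 ± 0.17, and the ubiquitin ligase adaptor Skp1a at -0.20 ± 0.23. In the list of other CDK inhibitors, those outside the members, Cdkn1a (p21) had 332 ± 161 and 329 ± 91.6 normalized counts (-0.07 ± 0.32). Cdkn1c, Cdkn2d and Cdkn3 were at -0.36 ± 0.66, -0.14 ± 0.29 and 0.02 ± 0.34. The carcinoma markers also had lower fitted values in KO (median log2 difference -0.95). WT5 had the highest sum of the G2 and mitosis genes, 30456 normalized counts, and the lowest carcinoma sum of the WT libraries, 18706. KO4 had the highest of both sums in the KO group, at 20534 and 18398. No relation between the sums was computed. The part of carcinoma RNA in these values was not tested.

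**Figure D4:**
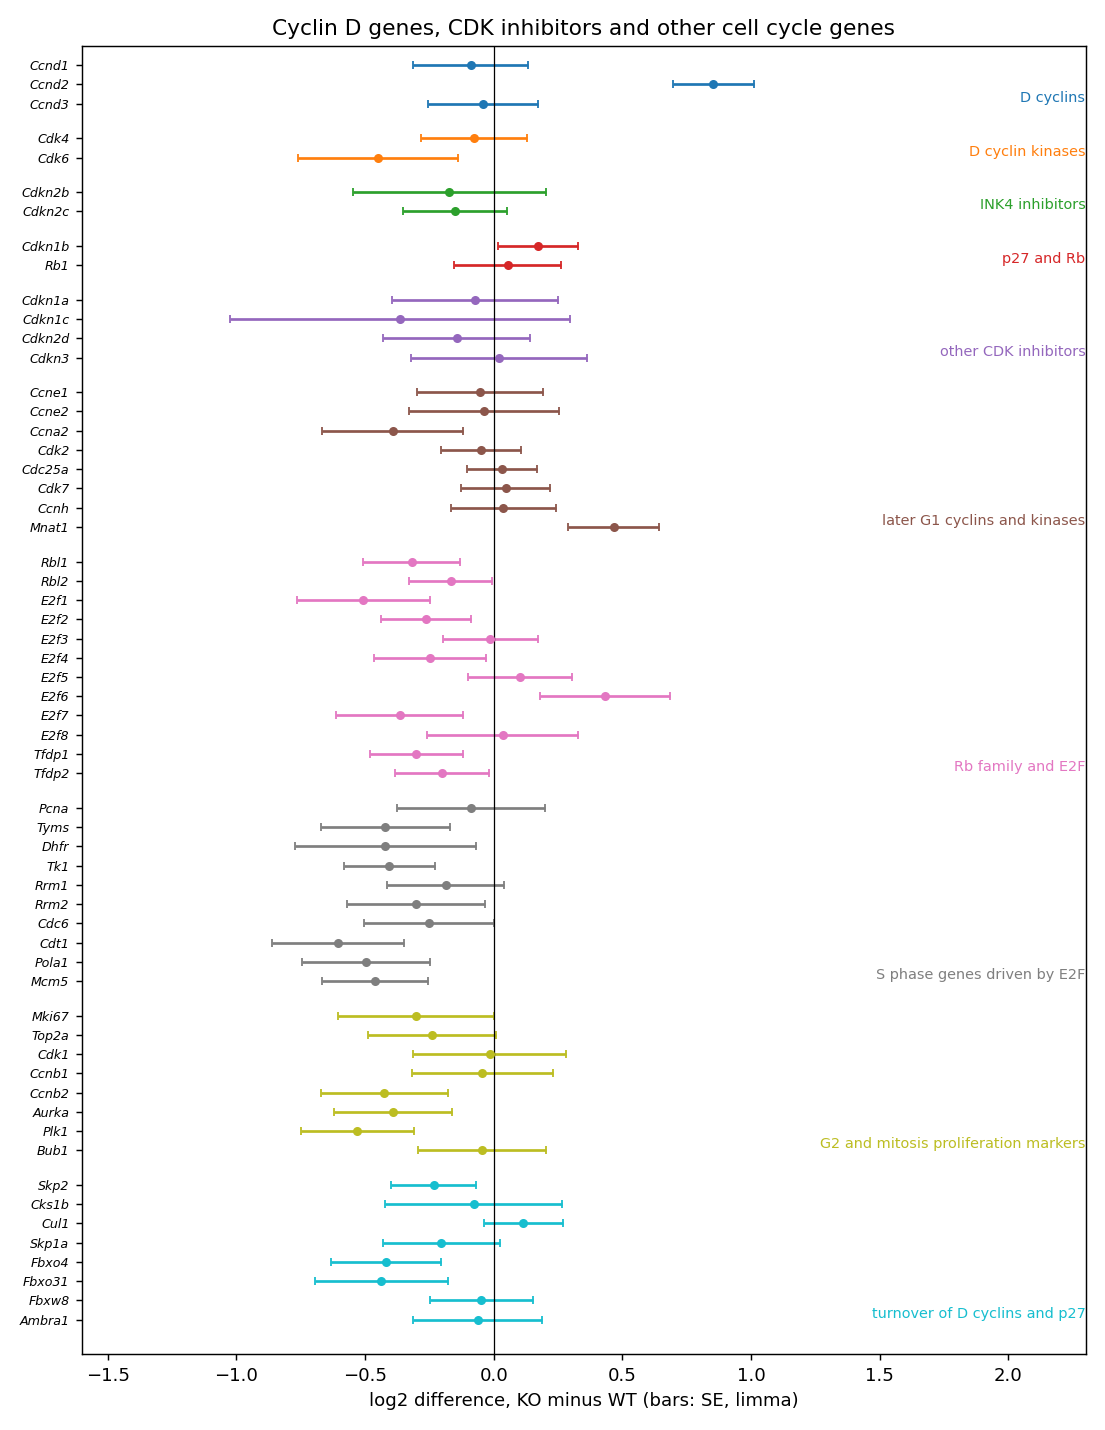
Log2 difference between KO and WT (horizontal axis, points) with its standard error from limma (bars) for the members and the other cell cycle genes, coloured by list. Ccnd2 lies at 0.85 and the next highest point, Mnat1, at 0.47, while all points of the S phase list lie below 0.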

How the data were processed

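Total RNA of frozen tumour sections was depleted of ribosomal RNA and sequenced, per the labels' protocols. The authors deposited signal values, normalized read counts per gene for 18047 Ensembl genes in 10 libraries. The submitters' processing notes name bcl2fastq 2.17 and the genome build GRCm38. Aligner, counter, strand and use of molecular identifiers are not given in the sources used here. In every library 100% of values were whole multiples of 1 read within 0.0001 of a read, so whole reads were recovered for count tests, which are alternatives (edgeR called 1 gene and DESeq2 121). Library totals are those of the recovered reads.

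The groups were compared on log2(normalized count + 1) by limma 3.58.1 under R 4.3.3, with its variance prior following mean level, over 17975 genes with a mean of at least 10, with Benjamini-Hochberg adjustment at 0.05. On this scale a fold change understates the change of low genes. Alternatives were edgeR 4.0.16, DESeq2 1.42.0, other pseudocounts, filters, scalings, covariates and libraries. The fit was also run on simulated counts, with levels and spread taken from these libraries. How many changed genes it recovered there is not given here. Symbols, coordinates and exon lengths are from GENCODE M21. Figures used matplotlib 3.10.9 and alignments Biopython 1.88. The members and gene lists were chosen with earlier results of these data known. Named genes are the members, up to 4 of each pathway list with the smallest p, and the 3 genes most correlated with each D cyclin (predicted names left out). The check of the targeted gene is not reported here.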

Additional observations from a re-analysis of the deposited data

Results flagged for a closer look

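The share of Ccnd3 in the D cyclin RNA stood apart in 1 KO library: it was 4.43% in KO3 and between 2.28% and 2.51% in the other 4 KO libraries. KO3 had the highest Ccnd3 and the lowest Ccnd1 level of the KO group. Of 26 groups of 5 values examined this was the 1 with such a gap. Chance gives one in about 1 of 20 groups, so 1 among 26 is not unusual. The 26 groups partly use the same counts.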

How the results depend on the processing

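The excess of Ccnd2 over the chromosome 6 median was positive in all 23 alternatives. It was 0.97 within the libraries with the RESUB prefix and 0.39 within those without it (both chosen after seeing the data), 0.62 to 0.74 with 1 library left out, and 0.66 to 0.72 in the rest. The number of genes past the threshold was 1, and it was 121 in DESeq2, 0 without WT2, WT3 and WT5, 0 with WT2 and WT5 averaged, 0 among the prefixed libraries, 52 among the rest and 0 to 3 with 1 library left out (3 without WT2, and 0 without any of KO1 to KO4 or WT3 to WT5). The number of pathway genes past the threshold was 0 in all 23 alternatives. Of 383 values of the member differences, list medians, Ccnd2 shares and Ccnd2 excess over the alternatives, 361 moved by less than the spread between replicates, whatever their adjusted p. The other 22 came from the fits within the prefix sets, except Rb1 at -0.33 with the prefix as a term and the median of the turnover genes at -0.27 without KO5. Part of this count was fixed in advance. Leaving out 1 of 5 libraries cannot move a member difference or a share by more than that spread. The replicate block and the absence of a filter leave the member differences as they were. The count is thus not a measure of how firm the values are. The share of Ccnd2 ran from 12.3% to 14.9% in KO and from 6.58% to 8.35% in WT. With the replicate number as a block, limma called 1 gene and Ccnd2 was at 0.85 (adjusted p = 0.306). Same-numbered KO and WT libraries correlated at -0.23 to 0.52, and 1 of 5 KO libraries correlated best with its own number, so the numbers were not taken as pairs. The GC and length correction gave 0.94 for Ccnd2. Cdkn2b, at 10 to 49 reads, is limited by depth.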
